A study of Mus musculus with 9 samples.

Results

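The 6 genes described here, *Strc*, *Ptprq*, *Grxcr1*, *Grxcr2*, *Clrn2* and *Pjvk*, are deafness genes whose products act at the surface of the hair bundle, at its base or in its maturation. They were taken by name from the 43808 genes of the count files, and no measured value entered the rule. Earlier results of these data were, however, known when they were chosen. Hair cells (HCs) were sorted from both cochleae and both vestibular organs of single mice at postnatal day 1 (P1), and their RNA was sequenced as 1 library per mouse, in 9 libraries. The genotypes were wild-type (Mir96+/+), heterozygous (Mir96+/Dmdo) and homozygous mutant (Mir96Dmdo/Dmdo), with 3 mice each. All of these mice, wild-type included, carried the Atoh1/nGFP transgene, in which *Atoh1* regulatory sequence drives nuclear GFP in HCs. A cross of homozygous Dmdo mice (C3HeB/FeJ) with C57BL6 transgenic mice gave heterozygous breeders with the transgene. The sequenced mice were bred from these, so their strain background is mixed and is not given for single mice. Cells positive for both GFP and the epithelial protein CD326 were collected, so cochlear and vestibular HCs are pooled in every library. The Dmdo (diminuendo) allele is an A-to-T change in the seed of miR-96, a microRNA made by HCs. In such bulk samples, fewer cells of a type and less RNA per cell cannot be told apart.

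The hair bundle is the set of actin-filled stereocilia on top of each HC that is deflected by sound or head movement. Extracellular links tie neighbouring stereocilia to each other, and proteins at the base set their taper and hold the bundle together while it grows. *Strc* encodes stereocilin, a large extracellular protein of the links between the tips of outer HC stereocilia and of their attachment to the tectorial membrane. *Ptprq* encodes a receptor-like phosphatase of the shaft connectors near the bundle's base. *Grxcr1* and *Grxcr2* encode glutaredoxin-like, cysteine-rich proteins of the stereocilia that are needed for normal stereocilium width and bundle shape. *Clrn2* encodes clarin 2, a membrane protein needed to maintain the bundle and its transducing stereocilia. *Pjvk* encodes pejvakin, a gasdermin-related protein that acts in the peroxisomes and at the bundle of HCs.

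MicroRNAs bind messenger RNAs mainly through the seed, bases 2 to 8 of the mature strand, so a changed seed pairs with a different set of sites. The mature miR-96-5p of RefSeq is read from the minus strand at chr6:30169506-30169528 (GRCm38.p6), and the Dmdo form was made from it by changing the single A of the seed. Both forms are shown because they define which sites were searched, with the seed in capitals.
miR-96-5p, wild-type: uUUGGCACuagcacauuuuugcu
miR-96-5p, Dmdo form: uUUGGCUCuagcacauuuuugcu

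The sites that pair with these seeds are GTGCCAA for the wild-type form and GAGCCAA for the Dmdo form, and they were searched on the transcribed strand of the 3′ UTR of each gene's longest coding transcript (GENCODE M21). None of the 6 genes holds a wild-type site, against 9.73% of 12946 tested genes with a 3′ UTR. The 3′ UTRs of the 6 genes are 248 bases in *Strc*, 311 in *Ptprq*, 127 in *Grxcr1*, 1186 in *Grxcr2*, 185 in *Clrn2* and 11 in *Pjvk*, while the median over all genes is 1185 bases. *Ptprq* alone of the 6 holds a site of the Dmdo form, as do 10.1% of all genes. It starts at base 48 of the 3′ UTR and is shown, with its seed match in capitals and 10 bases on each side, because it is the only site of either form in these genes. It lies at chr10:107517296-107517322 on the minus strand (GRCm38), and a match is a description of the letters, not of binding.
Ptprq 3′ UTR, Dmdo site: cagatcccagGAGCCAAaatcatccct

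In the promoter windows of RefSeq on the same build, from 250 bases before to 50 bases after the start of a gene, 3 of the 6 genes matched (*Strc*, *Grxcr1* and *Pjvk*). The E-box CAGCTG, which reads the same on both strands and can be bound by factors of the ATOH1 family, stood in 0 of the 3 and in 16.3% of 32851 promoter windows. On chromosome 2 the windows of *Strc* (121380891-121381190) and *Pjvk* (76650023-76650322) lie inside the genes as GENCODE M21 places them. Only the window of *Grxcr1* spans the GENCODE start, so the GENCODE starts of *Strc* and *Pjvk* were not searched.

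The libraries held 18175317 to 34873964 counted reads. *Mir96* itself was counted at 0 to 0.275 CPM (reads per 1000000 counted reads) in the 5 libraries with mouse numbers of 47 and lower and at 2.47 to 26.7 CPM in the 4 with higher numbers, and since the Dmdo allele changes 1 base and removes none, its level does not check the labels. Of 12 HC markers fixed as a list, 11 were found in every library, with *Pou4f3* at 1049 to 1294 CPM and *Myo7a* at 538 to 1405 CPM, and *Cabp2* was at 0 in all 9. Wild-type 59 and homozygous mutant 46 stood apart, with a mean root-mean-square (RMS) difference of 1.56 and 1.53 in log2(CPM + 1) from the other libraries, against 1.12 to 1.26 for the 7 others. The label's mouse number runs from 43 to 59, and all 3 homozygous mutants have numbers of 47 or lower, together with wild-type 44 and heterozygous 45, so the libraries are also compared at that border. Whether the numbers follow litter, day or order of processing is stated by neither the labels nor the study's methods.

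All 6 genes passed the filter on low counts, a minimum of 20 reads in 2 or more libraries of the same genotype, which left 15184 genes to test. Between homozygous mutant and wild-type HCs, *Strc* fell by edgeR, and none of the other 5 genes passed its threshold, a false discovery rate under 10% with a fold change above 1.5. At that threshold DESeq2 called *Strc*, *Ptprq* and *Clrn2*, and limma-voom called *Ptprq* and not *Strc*. *Ptprq* and *Clrn2* were also lower in every homozygous mutant library than in every wild-type library but did not pass. *Grxcr1*, *Grxcr2* and *Pjvk* had overlapping ranges. Over all genes tested, edgeR called 0.915% lower and 0.237% higher, beside 1 of these 6 lower and 0 higher. In the same comparison DESeq2 called 966 of the 15184 genes in either direction, beside 3 of the 6. Limma-voom called 320 of the 15184, beside 1 of the 6.

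*Strc* (ENSMUSG00000033498) lies on chromosome 2 from 121363728 to 121387168 on the minus strand (GRCm38, as for all gene positions here). Its level was 131, 367 and 521 CPM in wild-type 44, 55 and 59, from 2927, 10466 and 10259 reads. In heterozygous 45, 48 and 51 it was 102, 312 and 230 CPM, and in homozygous mutant 43, 46 and 47 it was 63.1, 56.5 and 99.4 CPM. Every homozygous mutant library was thus below every wild-type and every heterozygous library, and wild-type 44 and heterozygous 45 sat near the highest homozygous mutant library. The mean fell 4.65-fold, from 340 ± 197 CPM in wild-type to 73.0 ± 23.1 CPM in homozygous mutant HCs (SD, n = 3). The log2 fold change was -2.32 (SE 0.49, 95% confidence interval -3.36 to -1.28, adjusted p = 0.0590, edgeR quasi-likelihood). The call was lost when any of 6 single libraries was left out (wild-type 55 or 59, heterozygous 51, or any of the 3 homozygous mutants), with adjusted p from 0.104 to 0.219. It was also lost without both libraries that stand apart (log2 fold change -1.67, adjusted p = 0.298), with limma-voom (adjusted p = 0.1002) and with a term for *Xist* above *Ddx3y*, which marks 3 of the 9 libraries (adjusted p = 0.402). The marked libraries are wild-type 44 and 59 and heterozygous 48, and no homozygous mutant is marked. This term is thus partly bound up with genotype and cannot be fully told apart from it. Beside the term the log2 fold change of *Strc* was -2.06 (SE 0.54).

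**Figure D1:**
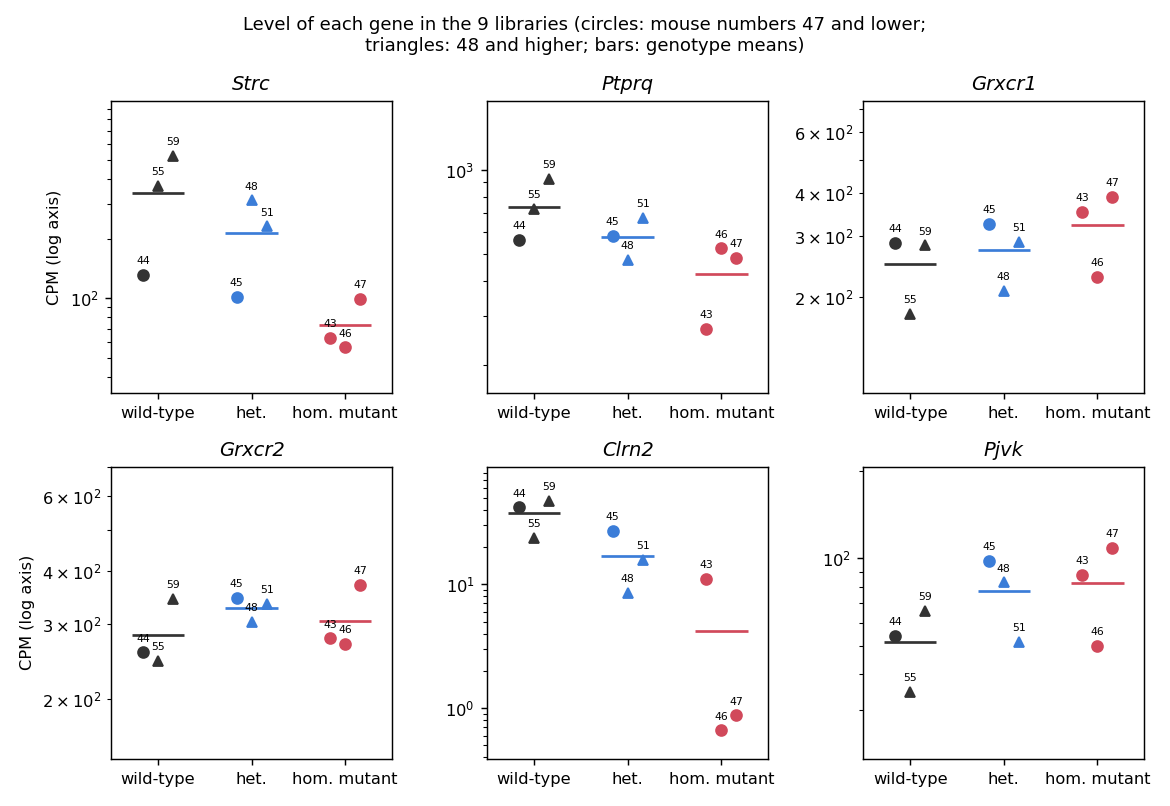
Level of each of the 6 genes in each library, in CPM on a log axis, by genotype; points are single libraries with their mouse numbers, circles for numbers of 47 and lower and triangles for 48 and higher, and bars are genotype means (n = 3). *Strc* in the 5 circles lies between 56.5 and 131 CPM and in the 4 triangles between 230 and 521 CPM, and *Clrn2* is under 1 CPM in homozygous mutants 46 and 47.

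The *Strc* values also divided by mouse number, at a border that was chosen with earlier results of these data known. In the 5 libraries with numbers of 47 and lower, *Strc* was 90.3 ± 30.6 CPM (SD), and in the 4 with numbers of 48 and higher it was 358 ± 123 CPM, 3.96-fold more, with no overlap. Among all genes tested, 3.55% were lower without overlap in the first set. With mouse number as a term beside genotype, *Strc* was lower in the libraries of the lower numbers by a log2 fold change of -1.63 (SE 0.29, adjusted p = 0.0052, edgeR), and 0.797% of all genes were called in that direction. None of the other 5 genes was called for mouse number, with adjusted p of 0.824 or more.

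Beside that term, the difference of *Strc* between homozygous mutant and wild-type HCs was -1.02 on the log2 scale (SE 0.31, adjusted p = 0.343) and no longer passed. Within the libraries of the lower numbers, it was -0.87 (SE 0.46, adjusted p = 0.786). Wild-type is 1 library there and is assumed to vary like the homozygous mutants, which alone give the spread, so this is mainly a description. Within them the order was still 131 CPM in wild-type, 102 CPM in the heterozygote and 56.5 to 99.4 CPM in the homozygous mutants. Within the libraries of the higher numbers, *Strc* was 444 ± 109 CPM in 2 wild-type and 271 ± 57.6 CPM in 2 heterozygous libraries, a log2 difference of -0.80 (SE 0.28, adjusted p = 1). No homozygous mutant has a number of 48 or higher, so for this genotype a full separation from mouse number cannot be had from these libraries.

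The summed level of the 12 HC markers moved with mouse number too, at 8984 to 11043 CPM in the lower and 12431 to 14927 CPM in the higher numbers, a 1.37-fold difference of the means. The mean sum of supporting cell markers was 1.34-fold higher in the higher numbers, with overlapping ranges. *Otof* alone ran from 1816 to 6267 CPM. Beside genotype, 7 of the 11 HC markers tested were lower in the lower numbers. *Pvalb* (log2 fold change 0.84), *Calb2* (0.54), *Gfi1* (0.39) and *Pou4f3* (0.02) were not. Of the 11 markers tested, *Otof*, the calcium sensor of the HC synapse, was called for mouse number (log2 fold change -0.95, adjusted p = 0.0147), and none was called by edgeR between homozygous mutant and wild-type HCs, where 6 had an unadjusted p under 0.05, DESeq2 called 5 and limma-voom 2. The part of these markers in the *Strc* values was not tested.

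**Figure D2:**
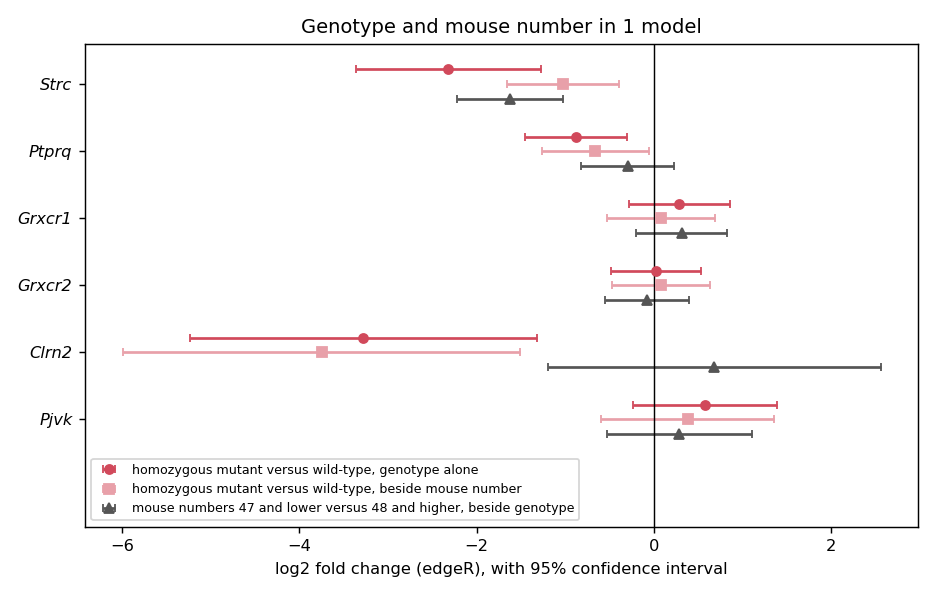
Log2 fold changes from edgeR with 95% confidence intervals for the 6 genes: homozygous mutant versus wild-type by genotype alone (circles), the same beside a mouse number term (squares), and the mouse number term itself (triangles). For *Strc* the genotype difference moves from -2.32 to -1.02 and the mouse number term is -1.63, while the interval of the mouse number term includes 0 for the other 5 genes.

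*Ptprq* (ENSMUSG00000035916) lies on chromosome 10 from 107517049 to 107720051 on the minus strand. It was at 562, 723 and 927 CPM in wild-type 44, 55 and 59, at 580, 474 and 671 CPM in heterozygous 45, 48 and 51, and at 270, 523 and 483 CPM in homozygous mutant 43, 46 and 47. The homozygous mutant libraries were all below the wild-type libraries and the heterozygous libraries overlapped both. The means were 737 ± 183 CPM in wild-type and 425 ± 136 CPM in homozygous mutant HCs, 1.73-fold lower, with a log2 fold change of -0.88 (SE 0.28, 95% confidence interval -1.45 to -0.31, adjusted p = 0.176, edgeR). The difference did not pass in edgeR, but it passed with DESeq2 (adjusted p = 0.0637), with limma-voom (adjusted p = 0.0391), with no filter on low counts (adjusted p = 0.0804) and without wild-type 44 (adjusted p = 0.0335). Without wild-type 44 the calls over all genes rose as well, from 175 to 739 of 15184. Beside mouse number the difference of *Ptprq* was -0.66 (SE 0.29, adjusted p = 0.675).

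*Clrn2* (ENSMUSG00000049530) lies on chromosome 5 from 45453751 to 45464149 on the plus strand. Its level was 41.8, 23.8 and 47.01 CPM in wild-type 44, 55 and 59 and 27.0, 8.47 and 15.7 CPM in heterozygous 45, 48 and 51. In homozygous mutant 43 it was 10.97 CPM from 305 reads, but in homozygous mutants 46 and 47 only 0.660 and 0.873 CPM, from 12 and 27 reads. All homozygous mutant libraries were below all wild-type libraries, and homozygous mutant 43 lay above heterozygous 48. The mean was 9.01-fold lower in homozygous mutant (4.17 ± 5.89 CPM) than in wild-type HCs (37.5 ± 12.2 CPM), and the SD among the homozygous mutants exceeded their mean.

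The log2 fold change of *Clrn2*, -3.28 (SE 0.94, 95% confidence interval -5.23 to -1.32, adjusted p = 0.125, edgeR), was the largest in size of the 6 genes and did not pass. It passed with DESeq2 (adjusted p = 0.0111), with no filter on low counts (adjusted p = 0.0120) and with a correction for gene length and GC content (adjusted p = 0.0459). It also passed without homozygous mutant 43, at -5.66 (adjusted p = 0.0528), where 22 of 15184 genes were called. Beside mouse number it was -3.75 (SE 1.09, adjusted p = 0.307), so unlike that of *Strc* its size did not shrink with that term, although the 2 genes were not compared by a test. The mouse number term of *Clrn2* was 0.68 (SE 0.91, adjusted p = 0.946).

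*Strc*, *Ptprq* and *Clrn2* were the 3 genes of the 6 whose homozygous mutant values all lay below the wild-type values, which held for 7.72% of all genes tested. Below the heterozygous values without overlap lay *Strc* alone, as did 7.44% of all genes.

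Neither of the glutaredoxin-like genes passed the threshold in any comparison. *Grxcr1* (ENSMUSG00000068082) lies on chromosome 5 from 68031835 to 68166398 on the plus strand. It was at 287, 179 and 282 CPM in wild-type 44, 55 and 59, at 325, 208 and 289 CPM in heterozygous 45, 48 and 51, and at 353, 229 and 390 CPM in homozygous mutant 43, 46 and 47. The ranges overlapped, and the log2 fold change between homozygous mutant and wild-type was 0.29 (SE 0.27, 95% confidence interval -0.28 to 0.86, adjusted p = 0.725, edgeR). *Grxcr2* (ENSMUSG00000073574) lies on chromosome 18 from 41985323 to 41999049 on the minus strand and was at 257, 246 and 343 CPM in wild-type 44, 55 and 59. It was at 345, 303 and 335 CPM in heterozygous 45, 48 and 51 and at 278, 270 and 370 CPM in homozygous mutant 43, 46 and 47. No genotype stood out, and the log2 fold change of *Grxcr2* was 0.03 (SE 0.25, 95% confidence interval -0.48 to 0.54, adjusted p = 0.982). The signs of both genes turned under the length and GC correction (-0.33 for *Grxcr1* and -0.19 for *Grxcr2*).

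*Pjvk* (ENSMUSG00000075267) lies on chromosome 2 from 76648476 to 76658556 on the plus strand. It was at 54.0, 34.6 and 66.1 CPM in wild-type 44, 55 and 59, at 98.1, 82.7 and 51.4 CPM in heterozygous 45, 48 and 51, and at 87.8, 49.96 and 109 CPM in homozygous mutant 43, 46 and 47. In each mutant genotype 2 of the 3 libraries lay above all wild-type libraries and 1 lay among them. The means were 51.6 ± 15.9, 77.4 ± 23.8 and 82.3 ± 29.9 CPM in wild-type, heterozygous and homozygous mutant HCs. The log2 fold change between homozygous mutant and wild-type was 0.58 (SE 0.39, 95% confidence interval -0.23 to 1.39, adjusted p = 0.573, edgeR), and the interval includes 0. It was 0.025 under the length and GC correction and 1.10 without both libraries that stand apart, and among single libraries left out it ran from 0.32 (without homozygous mutant 47) to 0.85 (without homozygous mutant 46), also falling to 0.35 without wild-type 55. None of these passed.

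Between heterozygous and wild-type HCs none of the 6 genes passed the threshold, by edgeR or by any alternative tried. None of the 15184 genes was called in this comparison (0%) by edgeR, where 686 had an unadjusted p under 0.05 and none of them was one of the 6, while DESeq2 called 46 genes and limma-voom called 1. The log2 fold changes were -1.24 for *Clrn2* (95% confidence interval -3.06 to 0.57), -0.76 for *Strc* (-1.76 to 0.24), -0.46 for *Ptprq* (-1.03 to 0.11) and 0.49 for *Pjvk* (-0.32 to 1.29). Those of *Grxcr2* and *Grxcr1* were 0.12 (-0.39 to 0.63) and 0.04 (-0.53 to 0.61). The intervals of all 6 include 0. With single libraries left out *Strc* ran from -1.15 (without heterozygous 48 or wild-type 44) to -0.27 (without wild-type 59), and was -0.40 without heterozygous 45, and *Ptprq* ran from -0.63 (without wild-type 44) to -0.23 (without wild-type 59).

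Between homozygous mutant and heterozygous HCs edgeR called none of the 6, and 0.00659% of all genes, a single gene, were lower. *Strc* (log2 fold change -1.56, SE 0.48) and *Clrn2* (-2.03, SE 0.90) had an unadjusted p under 0.05, and the adjusted p was 0.698 for both. DESeq2 called *Strc* here (adjusted p = 0.0784), and so did edgeR with no filter on low counts. Over all genes, DESeq2 called 147 of 15184 here and edgeR with no filter 69 of 20115. The values of *Ptprq*, *Grxcr1*, *Grxcr2* and *Pjvk* were -0.42, 0.25, -0.09 and 0.09. Since the comparisons share libraries, their fold changes are given side by side and not as separate support for one another.

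**Figure D3:**
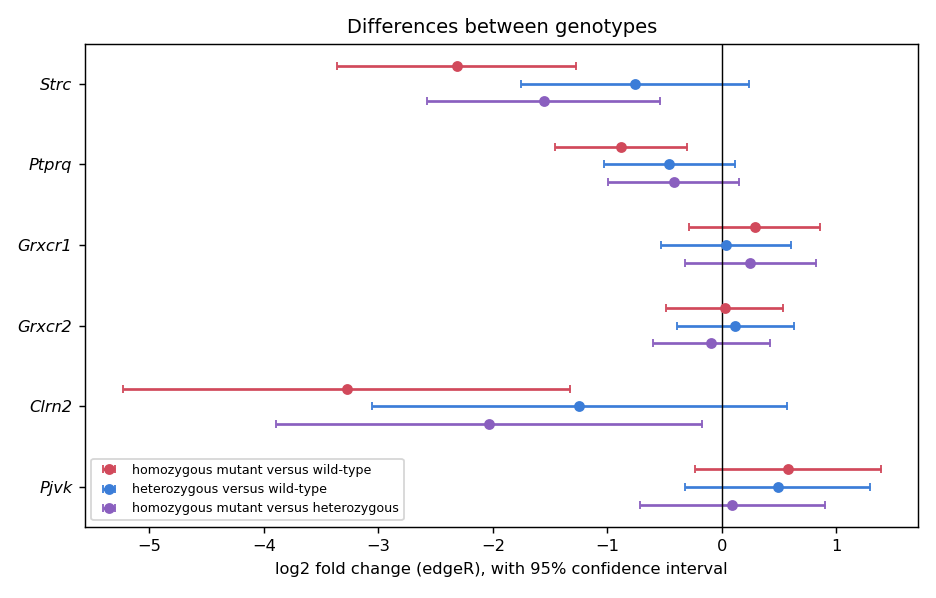
Log2 fold changes of the 6 genes with 95% confidence intervals from edgeR for the comparisons among the 3 genotypes (n = 3 each). The intervals of *Strc*, *Ptprq* and *Clrn2* lie below 0 for homozygous mutant versus wild-type, and those of *Grxcr1*, *Grxcr2* and *Pjvk* include 0 in every comparison.

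A trend over 0, 1 and 2 Dmdo alleles was fitted as well, with a false discovery rate under 10% and no fold threshold. *Strc* fell by 1.16 on the log2 scale per allele (SE 0.25, adjusted p = 0.0530, edgeR) and *Clrn2* fell by 1.64 per allele (SE 0.46, adjusted p = 0.0918), and 1.34% of all genes fell. With no filter on low counts *Strc* was no longer called for the trend (adjusted p = 0.136). Per allele the value of *Ptprq* was -0.44 (SE 0.13, adjusted p = 0.122), which did not pass in edgeR but passed with DESeq2 (adjusted p = 0.0482), limma-voom (adjusted p = 0.0168) and no filter on low counts (adjusted p = 0.0646), and those of *Pjvk*, *Grxcr1* and *Grxcr2* were 0.29, 0.14 and 0.01. Over all genes, DESeq2 called 1038 and limma-voom 765 of 15184 for the trend, and edgeR with no filter 466 of 20115. Beside mouse number the slope of *Strc* was -0.54 (adjusted p = 0.182) and that of *Clrn2* was -1.81 (adjusted p = 0.2201), and neither passed. Without any 1 of wild-type 55 or 59 or homozygous mutant 46 or 47, neither gene was called for the trend, and without homozygous mutant 43 or any 1 heterozygous library 1 of them was, while without wild-type 44 *Ptprq* was called as well (adjusted p = 0.0206). With single libraries left out, trend calls over all genes ran from 39 (without homozygous mutant 43) to 929 (without wild-type 44), beside 270 in the main fit. The summed level of 8 neuron markers moved with the allele number, at 1434 to 1787 CPM in wild-type, 882 to 956 CPM in heterozygous and 662 to 856 CPM in homozygous mutant libraries. That sum was mostly *Nefm*, a neurofilament gene, at a mean of 1249, 554 and 422 CPM in the 3 genotypes. Of the other 7, *Tubb3*, *Stmn2*, *Neurod1*, *Prph* and *Elavl4* had means under 10 CPM in every genotype, 4 of them were at 0 in 1 library or more, and *Snap25* and *Nefl* overlapped between all genotypes. The part of these markers in the falls of *Strc* and *Clrn2* was not tested.

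Levels of different genes can be compared only per transcript length. In wild-type HCs the order, in CPM per kilobase of the longest coding transcript, was *Grxcr1* (233 ± 57.1), *Grxcr2* (141 ± 26.6), *Ptprq* (99.7 ± 24.7), *Strc* (59.04 ± 34.2), *Pjvk* (42.3 ± 13.0) and *Clrn2* (39.8 ± 12.9). The ranges of every pair of neighbours in that order overlapped. In heterozygous HCs *Pjvk* (63.5 ± 19.5) stood above *Strc* (37.3 ± 18.4), the rest of the order was the same, and *Grxcr1* to *Grxcr2* and *Grxcr2* to *Ptprq* were separated without overlap. In homozygous mutant HCs the order was *Grxcr1* (302 ± 78.7), *Grxcr2* (153 ± 27.9), *Pjvk* (67.5 ± 24.5), *Ptprq* (57.5 ± 18.3), *Strc* (12.7 ± 4.02) and *Clrn2* (4.42 ± 6.24). Here *Pjvk* and *Ptprq* overlapped and *Strc* and *Clrn2* overlapped, while the other neighbours did not.

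**Figure D4:**
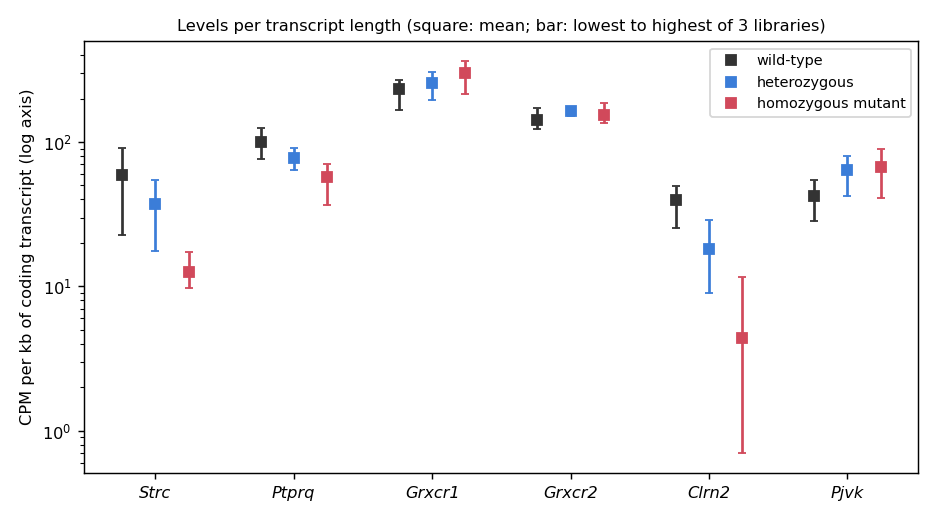
Level per transcript length of the 6 genes in each genotype, in CPM per kilobase on a log axis; squares are means and bars run from the lowest to the highest of 3 libraries. *Grxcr1* is highest in each genotype, at 233 in wild-type and 302 in homozygous mutant HCs, and *Clrn2* is lowest, at 39.8 and 4.42.

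The 6 genes differed in how far they varied over the 9 libraries. The SD of log2 CPM was 0.21 for *Grxcr2*, 0.35 for *Grxcr1*, 0.52 for *Pjvk*, 0.53 for *Ptprq*, 1.18 for *Strc* and 2.23 for *Clrn2*, and the median over all genes tested was 0.76. *Grxcr2* was thus at percentile 1.79 of all genes, among the steadiest, and *Clrn2* at percentile 80.4. The highest library exceeded the lowest 1.504-fold for *Grxcr2*, 9.23-fold for *Strc* and 71.2-fold for *Clrn2*. Among the 15 pairs of the 6 genes, *Grxcr1* and *Grxcr2* had the smallest RMS difference in centred log2 CPM over the libraries, 0.27, and *Clrn2* and *Pjvk* the largest, 2.26. The measure is not scaled for spread. Genes that vary little therefore come out near each other, and genes that vary much come out far from others.

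By the same measure over the 9 libraries, the 3 genes of all those tested that were closest to *Strc* were *Leng8* (0.23), *Adgrl1* (0.28) and *Adam11* (0.36), where the median gene was 1.39 away. All 3 were called lower between homozygous mutant and wild-type HCs and for the lower mouse numbers. They were picked for their nearness to *Strc* in these same 9 libraries. Sharing its calls follows largely from that choice and is no separate result. The closest to *Grxcr1* was *Chrna9* (0.11), which encodes a subunit of the acetylcholine receptor of HCs, followed by *Pdap1* and *Ddx1*. *Grxcr2* was closest to *Cdc40*, *Acsl3* and *Cfap91* (0.10 each). *Ptprq* was closest to *Gripap1* (0.18), *Nt5dc3* and *Esyt1*, and *Pjvk* to *Ndufa10* (0.17), *Rabgap1* and *Fer1l6*. For *Clrn2* the closest genes, *Bcs1l* (0.43), *Nrbf2* and *Gm4675*, were farther away. Closeness here describes 9 values, which share whatever the libraries share in depth and quality.

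Other genes of the hair bundle, in 4 lists, give the setting. Of 46 tested, 7 were called lower between homozygous mutant and wild-type HCs and none higher, beside 0.915% lower and 0.237% higher over all genes tested. The median log2 fold change of the 46 was -0.21, beside -0.02 over all genes. Among 13 genes of the links and surface, 3 fell: *Loxhd1* (log2 fold change -1.34), needed for transduction in mature HCs, and the Usher complex genes *Ush1c* (-1.10) and *Pdzd7* (-1.40). *Myo7a*, the motor of that complex, was at -0.88 and did not pass (adjusted p = 0.141, edgeR), but was called by DESeq2 and limma-voom. Of 8 genes of the bundle base and taper, *Ankrd24* (-1.21) fell, and the values of *Triobp*, *Tprn* and *Ripor2* were -0.44, 0.47 and 0.50, not passing.

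Of 18 genes of the actin core and its elongation, 1 fell, *Espn* (-1.18, SE 0.23, adjusted p = 0.0236), which encodes the actin bundler espin, while *Myo15a* (-1.31), *Espnl* (-0.86) and *Fscn2* (-0.74) did not pass in edgeR. DESeq2 called *Myo15a* and *Espnl*, and limma-voom *Espnl*. Of 7 genes of the transduction channel, *Tmc2* (-1.68), an early channel subunit, and *Tomt* (-1.17), needed to bring the channel to the bundle, fell. Limma-voom called neither of these nor *Ankrd24*. *Tmc1*, the later subunit, was at 0.38 and *Cib3*, a calcium-binding partner of these channels, at 0.40, and neither passed. Beside mouse number, *Espn* alone of the 7 was still called (adjusted p = 0.0877), and 25 of all 15184 genes were called. For mouse number itself, where 0.797% of all genes were called lower, 5 of the 46 genes were called lower and 1 higher in the lower numbers. Among these were 3 of the 7, *Ankrd24* (-1.06, adjusted p = 0.0052), *Loxhd1* (-0.88, adjusted p = 0.0623) and *Ush1c* (-0.70, adjusted p = 0.0908), and also *Myo15a* (-1.04, adjusted p = 0.0418). Leaving out single libraries moved the count of 7 to 11 for wild-type 44, 2 for wild-type 55, 0 for wild-type 59, 2 for heterozygous 51 and 0, 1 and 0 for homozygous mutant 43, 46 and 47. Over all genes the same fits called 739, 77, 26, 78, 22, 74 and 36 in that order, beside 175 in the main fit.

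Of 17 sequence relatives of the 6 genes found in the files, 12 were tested and none was called between homozygous mutant and wild-type HCs by edgeR (2 with an unadjusted p under 0.05), DESeq2 or limma-voom. The smallest p was that of *Glrx3*, a cytosolic glutaredoxin (log2 fold change 1.41, SE 0.56, adjusted p = 0.283), followed by *Mslnl* (0.71), a relative of *Strc*, and the phosphatase genes *Ptprj* (-0.79) and *Ptpro* (3.42). Of 23 peroxisome genes, set beside *Pjvk*, none was called by edgeR (4 with an unadjusted p under 0.05) or limma-voom and 1, *Abcd2*, by DESeq2. Their median was 0.12, and the 4 of smallest p were *Abcd2* (1.35), *Pex14* (-1.002), *Pex6* (-0.80) and *Pex13* (1.20), with adjusted p from 0.183 to 0.380.

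Shared reads are a limit for 1 of the 6 genes at most. *Strc* shares 10 exonic bases with *Ckmt1*, which lies on the opposite strand at 94.8 to 163 CPM, and neither the labels nor the methods give the strand setting of the count. *Grxcr1* overlaps *Gm43025*, which had 0 reads in every library. No transcript of another gene matched any of the 6 at 95% identity or more over 75 or more bases.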

How the data were processed

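Reads of 9 libraries (3 mice per genotype) were aligned by the authors to GRCm38, with HISAT2 2.0.4 named in the submitters' processing notes, and counted per gene with HTSeq. The deposited values are raw counts, not normalized, for 43808 genes. RNA integrity was lower in 1 wild-type and 1 homozygous mutant sample according to the study's methods, which do not name them. Library groups and mouse numbers came from the labels.

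CPM used library totals. Genes reaching 20 reads in 2 or more libraries of a genotype were tested in R 4.3.3 with the quasi-likelihood test of edgeR 4.0.16 (TMM, robust, all 9 libraries in 1 fit) and Benjamini-Hochberg adjustment over 15184 genes. With 3 mice against 3, p-values rest on this model. A difference that did not pass is therefore not shown to be absent. Depth was 18175317 to 34873964 reads. By read number alone, counting error is small beside the spread between libraries, except for *Clrn2* in homozygous mutants 46 and 47. The study amplified nanogram inputs of RNA by PCR, so reads do not count the molecules sampled. The fewest sorted cells came from a homozygous mutant. With 1 library per mouse, error of sampling and preparation cannot be told apart from the spread between mice.

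The 6 genes, the gene lists and the mouse number border were chosen with earlier results of these data known. Named beside them are the 4 genes of smallest p in each list, the 3 nearest genes of each member, overlapping genes, *Mir96*, *Xist* and *Ddx3y*, and cell type markers. Nearness is the RMS difference of log2 CPM (prior count 2), centred per gene. The longest coding transcript of GENCODE M21 gave lengths, GC content and 3′ UTRs, and BLAST 2.17.0 gave similar transcripts. Alternatives used DESeq2 1.42.0, limma 3.58.1 (voom with quality weights), other size factors and filters, left-out libraries, extra terms and other thresholds. Fits within mouse numbers of 48 and higher and of 47 and lower were added after seeing the data. Summed CPM ranges of the other marker lists were 2150 to 4376 for supporting cells (16 genes, between homozygous mutant and wild-type 0 called by edgeR, 2 with an unadjusted p under 0.05, and 1 called by DESeq2), 118 to 364 for Schwann cells, 162 to 861 for mesenchyme (highest in homozygous mutant 46), and at most 16.5 for blood and vessel, macrophage and melanocyte markers.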

Additional observations from a re-analysis of the deposited data

How the results depend on the processing

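No paired analysis was made. The paper calls the wild-type controls littermates, but neither the labels nor the study's methods give the litter of each mouse. Any pairing by litter could thus not be used. Of the 6 genes, 1 was called between homozygous mutant and wild-type HCs. That count was 3 with no filter on low counts and with DESeq2 (*Strc*, *Ptprq* and *Clrn2*), 2 with the gene length and GC correction (*Strc* and *Clrn2*) and 1 with limma-voom, which called *Ptprq* and not *Strc*. It was 0 without both libraries that stand apart, with the mouse number term, with the *Xist* and *Ddx3y* term, at a false discovery rate under 5% and within mouse numbers of 47 and lower, and 0 to 2 when single libraries were left out. The 7 hair bundle genes became 6 with limma-voom (*Espn*, *Espnl*, *Loxhd1*, *Myo7a*, *Pdzd7* and *Ush1c*), 4 with library totals, 11 with no filter, 13 with DESeq2, 1 with the mouse number term, 1 at a rate under 5% and 0 without both libraries that stand apart, with the *Xist* and *Ddx3y* term, with the length and GC correction and within mouse numbers of 47 and lower, and 0 to 11 when single libraries were left out. Against heterozygous HCs the count of 0 became 1 (*Strc*) with no filter and with DESeq2. Over all genes, homozygous mutant versus wild-type calls were 175 in the main fit, 562 of 20115 with no filter and 966 with DESeq2. They were 320 with limma-voom and 47 with the length and GC correction. With single libraries left out they ran from 22 (without homozygous mutant 43) to 739 (without wild-type 44). Against heterozygous HCs, no filter called 69 genes and DESeq2 147. For the trend, the count of 2 became 3 with DESeq2 and limma-voom (with *Ptprq*), stayed 2 with no filter, where *Ptprq* replaced *Strc*, and became 1 with library totals and with filterByExpr, 0 without both libraries that stand apart, with either added term and at a rate under 5%, and 0 to 3 when single libraries were left out. The cause of these changes was not tested, except that the within-number and left-out fits use fewer libraries. The fit within mouse numbers of 47 and lower has 1 wild-type library, so its counts of 0 say nothing about stability.

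Signs turned only for values that passed no threshold. Under the length and GC correction *Grxcr1* and *Grxcr2* became -0.33 and -0.19 (homozygous mutant versus wild-type), -0.56 and -0.25 (heterozygous versus wild-type) and -0.16 and -0.094 (trend), *Pjvk* became -0.063 (heterozygous versus wild-type) and *Grxcr2* 0.066 (homozygous mutant versus heterozygous). *Pjvk* (homozygous mutant versus heterozygous) was -0.082 with the mouse number term and -0.23 within the lower numbers. With single libraries left out, *Grxcr2* ran from -0.13 to 0.22 (homozygous mutant versus wild-type) and -0.052 to 0.095 (trend), *Grxcr1* from -0.16 to 0.19 (heterozygous versus wild-type) and *Pjvk* from -0.17 to 0.35 (homozygous mutant versus heterozygous). *Strc*, *Ptprq* and *Clrn2* stayed below 0 in every comparison and alternative, with *Strc* between -2.71 and -0.87, *Ptprq* between -1.05 and -0.42 and *Clrn2* between -5.66 and -2.53 for homozygous mutant versus wild-type. Of the 18 nearest genes, 16 were the same with a prior count of 5.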
